A study of Laccaria bicolor with 18 samples.

Results

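Hydrophobins 624234, 180892 (LbH11) and 389286 of the ectomycorrhizal basidiomycete *Laccaria bicolor* were followed through the life of the basidiocarp. These 3 gene models, of 23130 counted, were named by their identifiers, with earlier results of these data known. The share of all gene models given beside a count of the 3 is thus a description and not a blind comparison. Their expression was compared between cap and stipe and between 3 stages. RNA came from caps and stipes of early, medium and late basidiocarps of strain S238N, harvested under inoculated Douglas fir seedlings in a nursery. Each of the 6 groups of tissue and stage had 3 libraries, told apart by a number in their titles, so that 18 libraries were compared. The paper speaks of 3 replicates. Cap and stipe were separated from each other after harvest, but the labels do not say which cap and stipe shared a basidiocarp. They were therefore compared as unpaired. No mutant, treatment or dose was involved, and age differed between groups only as the stage of the basidiocarp. No marker gene of cap or stipe tissue was at hand to check the labels.

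Hydrophobins are small secreted fungal proteins with a conserved pattern of cysteines. They assemble at the boundary between water and air into films with a wettable and a water-repellent face. Such films coat aerial hyphae and spores, and in the fruiting bodies of *Schizophyllum commune* and *Agaricus bisporus* hydrophobins line air channels and cover the surface. A basidiomycete genome carries a family of hydrophobin genes, whose members are used at different stages and in different tissues. All 3 gene models carry the annotation structural constituent of cell wall. LbH11 also has a RefSeq hydrophobin symbol. A specific function of each of the 3 proteins in *L. bicolor* is not known from the sources used here.

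The gene models of a library held 38976106 to 90888294 reads in all (median 54676654.5). Expression is given as RPKM, the authors' value normalized to transcript length and library size, or as CPM, the counts relative to library size after TMM scaling. CPM serves for comparisons of a gene model between groups, and RPKM for comparisons between gene models. Medium stipes 1 and 2 and late caps 2 and 3 were closer to each other (biological coefficient of variation 4.16% and 4.05%) than the other replicate pairs (9.29% to 39.2%), although they differed by more than sampling noise. In bulk tissue, fewer cells of a type and less RNA per cell cannot be told apart. Whether the members of the family share reads was not tested.

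Hydrophobin 624234 was among the most expressed gene models of early basidiocarps and was lowest in the late stipe. In early caps it had 2168, 2932 and 2876 RPKM, and in early stipes 4028, 3180 and 2684 RPKM, which placed it between rank 22 and rank 52 of all gene models. Medium caps held 1185, 1742 and 1420 RPKM, and medium stipes 1816, 2155 and 592 RPKM. Medium stipe 3 was thus well below the other medium stipes, and below each of the medium caps. In late caps 97.7, 118 and 114 RPKM remained, and in late stipes 12.9, 13.6 and 14.4 RPKM. The late libraries of both tissues were below every early and medium library, and the late stipes were below every late cap. As CPM, the mean was 2193 ± 445 in early stipes, 1637 ± 293 in early caps, 1048 ± 570 in medium stipes, 1002 ± 181 in medium caps, and then 75.5 ± 6.50 in late caps and, lowest of all, 9.18 ± 1.37 in late stipes (SD, n = 3). In this order the first 4 groups overlapped with their neighbours, whereas medium caps, late caps and late stipes stood apart from each other. The highest group mean was 239 times the lowest.

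LbH11 was the most expressed of the 3 in early stipes and fell at each step of ageing. Early stipes contained 9935, 9643 and 4727 RPKM, at ranks 7, 10 and 18 of all gene models. Early stipe 3 was well below the other early stipes, but above each of the early caps, which had 2144, 2219 and 3607 RPKM. In medium stipes 554, 568 and 365 RPKM were measured, and in medium caps 100, 231 and 318 RPKM. By the late stage 27.8, 42.0 and 40.0 RPKM were left in stipes and 15.6, 13.8 and 12.2 RPKM in caps. The order of the mean CPM was early stipe (3847 ± 1399), early cap (1164 ± 367), medium stipe (243 ± 57.2), medium cap (104 ± 47.0), late stipe (17.6 ± 4.30) and late cap (6.80 ± 0.926). No library of a group overlapped with those of the next group in this order. The highest group mean was 566 times the lowest, and at each stage the stipe was above the cap.

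Gene model 389286 was weakly expressed and had the opposite course. It was counted with 16 to 65 reads per library (median 28), so that counting error weighs on its values: 16 reads have an exact 95% Poisson interval of 9.15 to 26.0, which covers counting error only. In late stipes it had 2.78, 4.0 and 2.78 RPKM, and in late caps 1.91, 1.15 and 1.84 RPKM. The medium stipes held 1.81, 1.01 and 1.43 RPKM and the medium caps 1.03, 0.901 and 1.09 RPKM. In early stipes 0.958, 1.21 and 1.58 RPKM and in early caps 1.17, 1.15 and 0.729 RPKM were found. Only the late stipes, with a mean of 1.19 ± 0.187 CPM, stood apart from the next group, the late caps (0.630 ± 0.166 CPM). The remaining 5 groups, down to 0.350 ± 0.0854 CPM in early caps, overlapped with their neighbours in the order. Even in late stipes, 389286 was at rank 12186 or lower in the libraries.

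**Figure D1:**
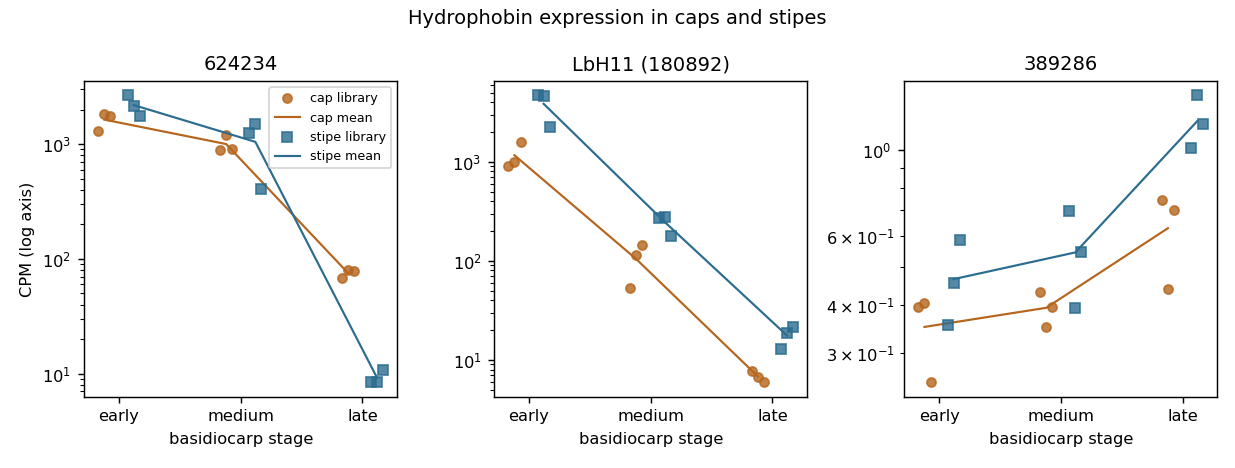
Expression of 624234, LbH11 (180892) and 389286 in each library (points, caps as circles and stipes as squares) as CPM on a log axis, by basidiocarp stage, with lines through the group means (n = 3). Hydrophobin 624234 ended at 75.5 CPM in late caps and 9.18 CPM in late stipes, LbH11 fell at both steps in both tissues, and 389286 was highest in late stipes.

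Ageing was compared first within caps. Calls required a log2 fold change of more than 1 in either direction and an adjusted p below 0.05. The test was the quasi-likelihood test of edgeR, and p was adjusted by Benjamini-Hochberg over the 16485 gene models that passed the filter on low counts. All 3 hydrophobins passed this filter. From early to late caps, 624234 fell by 4.44 ± 0.40 on the log2 scale (SE; 21.7-fold, adjusted p = 1.03e-06) and LbH11 fell by 7.42 ± 0.49 (171-fold, adjusted p = 1.63e-07). Gene model 389286 was 0.86 ± 0.30 higher in late caps (adjusted p = 0.0321), below the required size. Thus 2 of the 3 were called lower, in a comparison in which 6.12% of all gene models were called lower and 9.27% higher. Without early cap 2 or without late cap 2 the difference of 389286 was 1.01 or 1.09, and then it was called.

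Of the 2 abundant hydrophobins, LbH11 was called lower at both steps in the caps and 624234 at the later step alone. Between early and medium caps LbH11 fell by 3.48 ± 0.40 (11.2-fold, adjusted p = 2.76e-04), whereas 624234, also lower in all medium caps than in all early caps, differed by -0.71 (95% interval -1.45 to 0.03, adjusted p = 0.262) and 389286 by 0.18 (interval -0.48 to 0.85, adjusted p = 0.772). Here 0.952% of all gene models were called lower and 1.08% higher, and 1 of the 3 hydrophobins was called. Between medium and late caps both fell by similar amounts, where 624234 fell by 3.73 ± 0.39 (13.3-fold, adjusted p = 1.03e-05) and LbH11 fell by 3.94 ± 0.41 (15.3-fold, adjusted p = 1.16e-05). Among all gene models, 5.81% were called lower and 9.17% higher at this step. For 389286 the difference was 0.68 (interval 0.06 to 1.31, adjusted p = 0.0775), which did not pass. These comparisons share the libraries of their common groups and are not independent of each other.

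In the stipes the fall of 624234 was deeper than in the caps. From early to late stipes it fell by 7.90 ± 0.47 (239-fold, adjusted p = 9.19e-08), LbH11 fell by 7.77 ± 0.49 (218-fold, adjusted p = 1.12e-07) and 389286 rose by 1.35 ± 0.28 (2.55-fold, adjusted p = 0.00128). Accordingly, 2 of the 3 were called lower, where 11.7% of all gene models were, and 1 was called higher, where 7.63% were. In each of these cases the late libraries did not overlap with the early ones.

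LbH11 was again called lower at both steps in the stipes, and 624234 at the later step. From early to medium stipes LbH11 fell by 3.98 ± 0.41 (15.8-fold, adjusted p = 7.94e-05). The value for 624234 was -1.07 (interval -1.81 to -0.32, adjusted p = 0.0891), which did not pass, but it was called by DESeq2 with -1.07. This value moved with medium stipe 3, and without that library it was -0.68. For 389286 the difference was 0.23 (interval -0.39 to 0.84, adjusted p = 0.714). At this step 1.6% of all gene models were called lower and 0.88% higher. From medium to late stipes 624234 fell by 6.83 ± 0.45 (114-fold, adjusted p = 8.82e-07) and LbH11 fell by 3.79 ± 0.41 (13.8-fold, adjusted p = 1.26e-05), whereas 389286 rose by 1.12 ± 0.28 (2.18-fold, adjusted p = 0.00522). The background was 9.39% of gene models called lower and 6.2% called higher. The rise of 389286 at this step was 0.94 without medium stipe 2, which is below the required size.

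Cap and stipe differed in a stage-dependent way for 624234 and in the same direction at every stage for LbH11. In early basidiocarps LbH11 was 1.72 ± 0.38 lower in caps than in stipes on the log2 scale (3.30-fold, adjusted p = 0.00833), where 2.98% of all gene models were called lower in caps and 2.18% higher. The call was lost without early cap 2 (-1.63). Hydrophobin 624234 differed by -0.42 (interval -1.16 to 0.31, adjusted p = 0.486) and 389286 by -0.42 (interval -1.07 to 0.23, adjusted p = 0.423).

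In medium basidiocarps LbH11 was 1.22 ± 0.37 lower in caps (2.33-fold, adjusted p = 0.0228), against 5.05% of all gene models called lower and 6.47% called higher. This call was among the least stable of the members: it was lost when medium stipes 1 and 2 were summed into a single library (-1.15), and when medium cap 1, medium cap 2, medium stipe 1 or medium stipe 2 was left out (-0.92 to -1.30). For 624234 the difference was -0.06 (interval -0.80 to 0.67, adjusted p = 0.906), and its sign turned without medium stipe 1 or medium stipe 2 (0.06 and 0.25). Gene model 389286 differed by -0.47 (interval -1.10 to 0.17, adjusted p = 0.247).

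In late basidiocarps the 2 abundant hydrophobins went in opposite directions. Hydrophobin 624234 was 3.04 ± 0.38 higher in caps than in stipes (8.22-fold, adjusted p = 1.17e-05), and LbH11 was 1.37 ± 0.38 lower in caps (2.59-fold, adjusted p = 0.00685). Each of these differences held in all 3 libraries of a tissue against all 3 of the other. For 389286 the value was -0.91 ± 0.27 (adjusted p = 0.0119), below the required size, and it was called without late cap 1 (-1.06). Of all gene models, 14.8% were called higher in late caps and 9.55% lower.

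**Figure D2:**
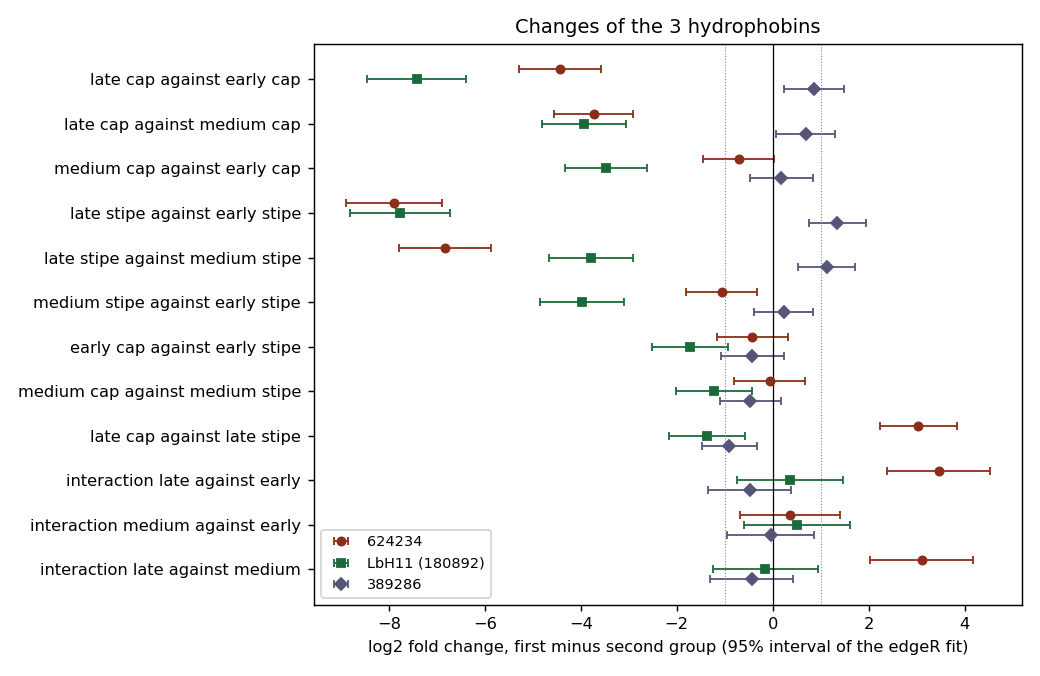
Log2 fold changes of the 3 hydrophobins in 9 comparisons, and 3 interactions (the change in caps minus the change in stipes), as points with the 95% interval of the edgeR fit, with dotted lines at the required size of 1. The late stipe comparisons of 624234, at -7.90 and -6.83, lie well below its late cap comparisons, at -4.44 and -3.73, whereas the intervals of LbH11 for caps and stipes overlap.

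Whether the change with age differed between the tissues was tested as an interaction, the change in caps minus the change in stipes. For 624234 this was 3.46 ± 0.51 from early to late (adjusted p = 3.47e-04) and 3.10 ± 0.50 from medium to late (adjusted p = 0.00215), so that the fall in caps was smaller. It was the only one of the 3 called here, where 9.84% and 5.5% of all gene models were called with a positive interaction and 4.62% and 1.79% with a negative one. The values stayed between 2.79 and 3.61 when single libraries were left out. LbH11, which fell in both tissues, had an interaction of 0.35 from early to late (interval -0.75 to 1.46, adjusted p = 0.659) and of -0.15 from medium to late (interval -1.25 to 0.95, adjusted p = 0.889). For 389286 these were -0.48 (interval -1.35 to 0.39, adjusted p = 0.419) and -0.44 (interval -1.30 to 0.42, adjusted p = 0.526). These intervals do not exclude differences up to their bounds.

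From early to medium no interaction was called for the 3 hydrophobins, nor for another member of their family. The values were 0.36 for 624234, 0.50 for LbH11 and -0.05 for 389286, with adjusted p of 0.776, 0.699 and 0.975. The count of 0 in edgeR came with a background of 0% of all gene models called positive and 0.0182% called negative. With an unadjusted p under 0.05, 1 member of the family passed, where 445 of all gene models were positive and 228 negative. DESeq2 called 0, where it called 56 of all gene models positive and 45 negative.

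The ratio of LbH11 to 624234 within a library does not depend on the scaling of the libraries. It was near 1 in early caps (0.989, 0.757 and 1.25 in RPKM), and LbH11 prevailed in early stipes (2.47, 3.03 and 1.76). In the medium stage 624234 prevailed in every library, with ratios of 0.0845, 0.132 and 0.224 in caps and 0.305, 0.264 and 0.617 in stipes. Late caps kept low ratios of 0.160, 0.117 and 0.107, whereas late stipes were back at 2.17, 3.09 and 2.79. Both gene models were low in late stipes, with 12.9 to 14.4 RPKM for 624234 and 27.8 to 42.0 RPKM for LbH11. The like ratio of early and late stipes is thus not a like level. On the log2 scale the means were -0.03 ± 0.36 in early caps, -2.88 ± 0.70 in medium caps and -2.99 ± 0.30 in late caps. For stipes they were 1.24 ± 0.40, -1.44 ± 0.66 and 1.41 ± 0.26 (SD, n = 3). The libraries of early and late stipes overlapped in this ratio, and the difference was not tested. With CPM in place of RPKM each log2 ratio was lower by the same amount (-0.49), that of the different transcript lengths.

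**Figure D3:**
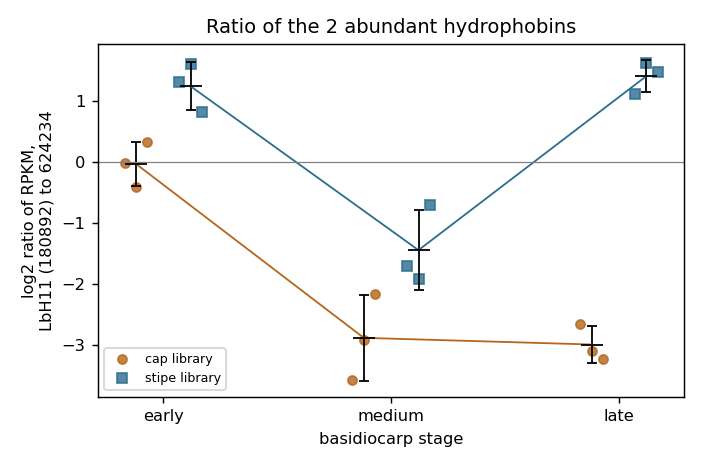
Log2 ratio of the RPKM of LbH11 (180892) to that of 624234 in each library by basidiocarp stage (circles caps, squares stipes), with the group mean ± SD as black bars (n = 3). Caps went from -0.03 to -2.99, whereas stipes went from 1.24 through -1.44 back to 1.41, with both gene models at low levels in late stipes.

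The 3 hydrophobins were set beside the rest of their family. With the annotation structural constituent of cell wall or a RefSeq hydrophobin symbol, 12 gene models were counted, of which 11 passed the filter (LbH10, with at most 7 reads in a library, did not). Summed over the 12, hydrophobin RPKM was 11439 ± 3506 in early stipes and 5396 ± 1095 in early caps, and 0.609% and 0.309% of all reads were theirs. The sum was 2078 ± 924 in medium stipes and 1879 ± 238 in medium caps. It was 805 ± 19.8 in late caps and 116 ± 17.7 in late stipes.

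Hydrophobin 624234 and LbH11 accounted for almost all of the early sum. In early caps 624234 had 49.7 ± 6.21% and LbH11 48.7 ± 6.20% of it, and in early stipes 29.8 ± 5.76% and 69.8 ± 5.78%. In the medium stage 624234 alone had 76.7 ± 5.12% in caps and 70.0 ± 10.9% in stipes. In late caps only 13.7 ± 1.5% was 624234 and 1.72 ± 0.178% LbH11, and 77.2 ± 1.53% was another family member, LbH14 (318421). Late stipes were mixed, with 32.1 ± 9.02% LbH11, 26.9 ± 12.9% LbH14, 11.9 ± 2.48% 624234 and 10.3 ± 0.610% LbH1 (399293). The share of 389286 was highest there, at 2.74 ± 0.377%. These shares are descriptions of RPKM and were not tested.

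**Figure D4:**
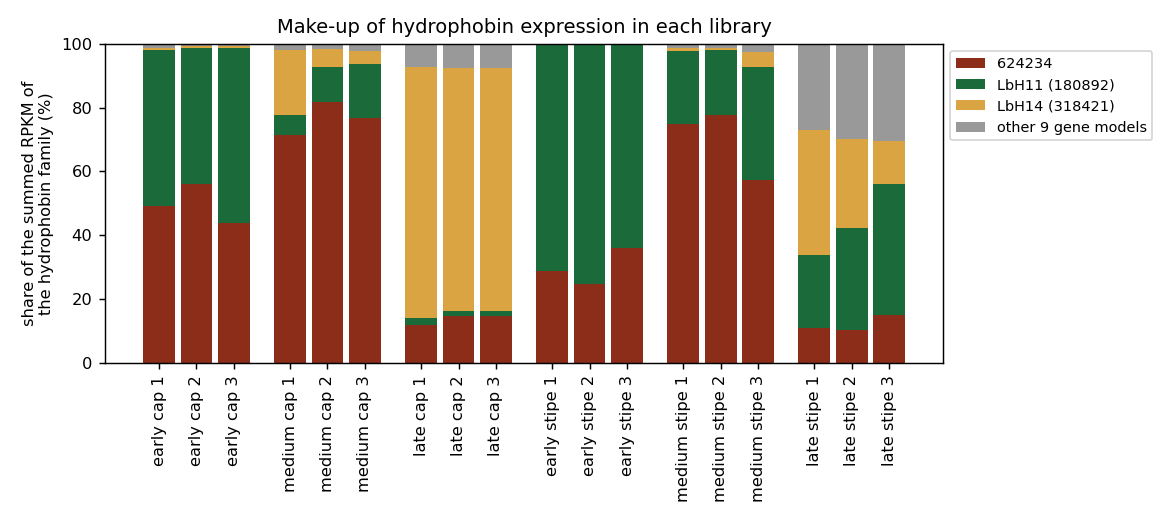
Share of each of 624234, LbH11 (180892), LbH14 (318421) and the other 9 family members in the summed RPKM of 12 hydrophobin gene models, as a stacked bar for each of the 18 libraries. LbH14 took 77.2% on average in late caps, where 624234 took 13.7% and LbH11 1.72%.

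LbH14 thus had the opposite course to 624234 and LbH11 in caps. It had 36.8, 28.8 and 39.7 RPKM in early caps, 341, 124 and 73.9 RPKM in medium caps and 646, 622 and 597 RPKM in late caps. The late caps were above every other library, whereas the medium caps were widely spread. From early to late caps LbH14 rose by 4.31 ± 0.65 (19.9-fold, adjusted p = 1.32e-04), and late caps were 4.34 ± 0.65 above late stipes (20.3-fold, adjusted p = 6.49e-05). Both calls held without any single library. Medium caps were 2.57 ± 0.60 above medium stipes (adjusted p = 0.00605), a value that was 1.60 without medium cap 1 and was not called with the libraries of these groups alone (2.54). The step from early to medium caps was 2.59 and lost its call without any of the early caps or medium cap 1 (1.62 to 2.69), with the libraries of these groups alone (2.55) or with both near-alike pairs summed (2.57). The step from medium to late caps was 1.72 and lost its call without any of the late caps, medium cap 2 or medium cap 3 (1.37 to 1.81), or with late caps 2 and 3 summed (1.80), and it was 2.72 without medium cap 1. The rise from early to late stipes, whose libraries overlapped, was 1.71, was not called without early stipe 1, early stipe 3, late stipe 1 or late stipe 2 (1.33 to 1.66), and was 2.64 without early stipe 2.

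The other members of the family were expressed far below 624234 and LbH11 in early basidiocarps, with at most 29.0 RPKM in any library apart from LbH14. LbH1 was the next to rise in late caps, by 1.64 ± 0.21 against early caps (adjusted p = 2.83e-05) and 1.57 ± 0.21 against medium caps (adjusted p = 6.23e-05). Late caps were also 1.29 ± 0.21 above late stipes in LbH1 (adjusted p = 1.04e-04). LbH9 (253198), with at most 35 reads per library, was lower by 1.59 in late than in early stipes, and higher by 1.25 and 1.37 in medium and late caps than in the stipes of the same stage. LbH13 (335058) exceeded the late stipes by 1.03 in late caps, and 399291 fell by 1.01 from early to medium caps. The LbH9 calls were lost without early stipe 2 or late stipe 2 in the first case (-1.12 and -1.14), without medium cap 1, medium cap 3 or any medium stipe in the next (1.06 to 1.36), and without late cap 1 or late stipe 2 in the last (1.10 and 0.94). LbH13 was not called without late cap 2 (0.98), nor 399291 without early cap 3, medium cap 1 or medium cap 3 (-0.85, -0.97 and -0.996). LbH8 (253148), LbH12 (241509) and 399287 were called in no comparison.

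Over the 11 tested family members, 2 were called higher and 2 lower in late against early caps (background 9.27% higher and 6.12% lower), and likewise in late against medium caps (9.17% and 5.81%). In late against early stipes 2 were higher and 3 lower (7.63% and 11.7%), and of these 5 calls 3 were left without late stipe 2. In late against medium stipes 1 was higher and 2 were lower (6.2% and 9.39%). In late caps 5 of 11 (45.5%) were called higher than in late stipes and 1, LbH11, lower (14.8% and 9.55%). The median log2 fold change of the family was 1.03 in this comparison, and that of all gene models was -0.01. The cell wall annotation was read from the paper's lists of clustered or regulated genes. Some members may thus have entered the family because they are regulated in these libraries, which limits the comparison with all gene models. The excess was not tested.

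The family counts at the earlier stages were small and less stable. From early to medium caps 1 was higher and 2 were lower (1.08% and 0.952%), and a single call was left without early cap 3 or medium cap 1. In medium caps against medium stipes 2 were higher and 1 lower (6.47% and 5.05%). There a single call was left without medium cap 1, medium stipe 1 or medium stipe 2, and 0 were made by edgeR with the libraries of these groups alone. The share of all gene models called in that smaller fit is not given here, so this 0 is no result about the family. In early caps against early stipes (2.18% and 2.98%), and in medium against early stipes (0.88% and 1.6%), edgeR called 0 higher and 1, LbH11, lower. With an unadjusted p under 0.05, 1 was higher in each, where 488 and 308 of all gene models were. DESeq2 called 0 higher in either, where it called 386 and 216 of all gene models. In medium against early stipes it called 2 lower, where it called 368 of all gene models lower. Of early caps against early stipes 0 calls were left without early cap 2, and 2 were made without early stipe 2, medium cap 1 or medium cap 3. In medium against early stipes 2 were made without early stipe 2.

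**Figure D5:**
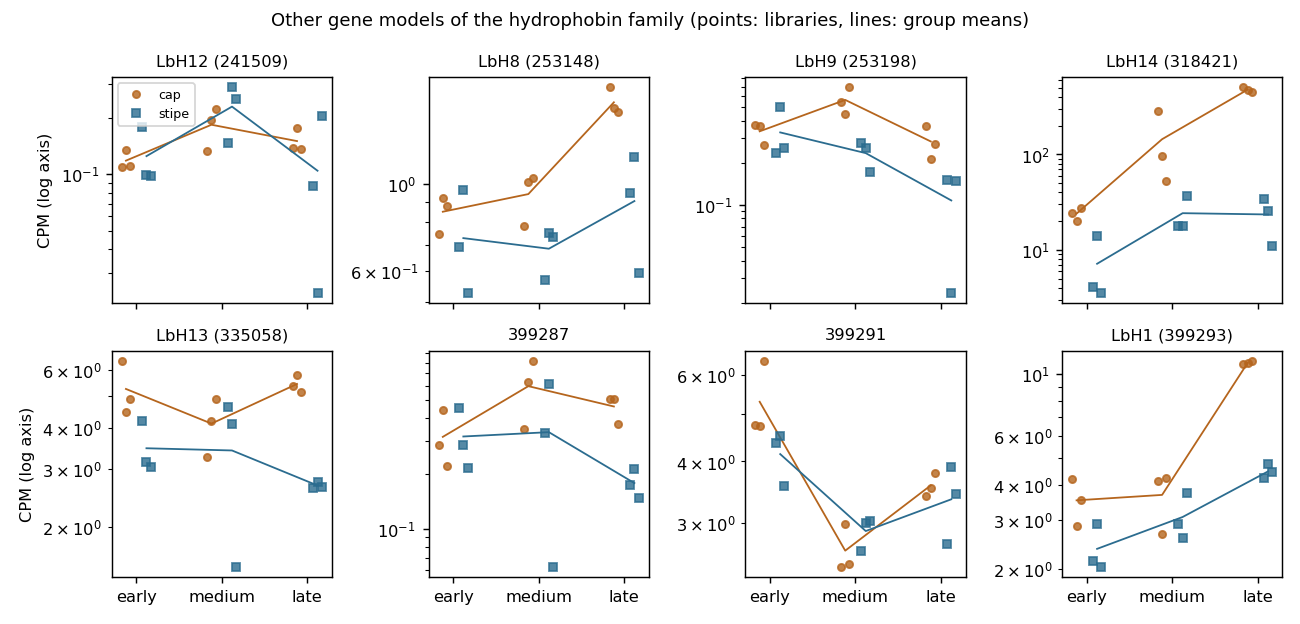
CPM on log axes of 8 other hydrophobin gene models in each library by basidiocarp stage (circles caps, squares stipes, lines group means, n = 3). LbH14 (318421) rose from 24.0 CPM in early caps to 477 CPM in late caps, and the remaining models stayed at or below about 11.1 CPM.

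The hydrophobins were also compared with 238 gene models annotated as small secreted proteins, of which 236 were tested. They were read from the paper's lists of transcripts regulated in basidiocarp development, or in basidiocarps and ectomycorrhiza against free-living mycelium. Membership thus rested in part on these same libraries. A share above that of all gene models is therefore no result about small secreted proteins in general. The list itself holds 624234 and LbH11, but not 389286. Of these, 21 (8.9%) were lower and 63 (26.7%) higher in late than in early caps, where 6.12% and 9.27% of all gene models were. In stipes 52 (22%) were lower and 43 (18.2%) higher in the late stage, against 11.7% and 7.63% of all gene models. In late caps against late stipes, 95 (40.3%) were higher and 29 (12.3%) lower, against 14.8% and 9.55%. Hydrophobin 624234 and LbH11 are thus among the 21 that were lower in late caps, and LbH11 among the 29.

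Across the 18 libraries, the expression of 624234 and LbH11 correlated with Pearson's r = 0.83 (Spearman's rho = 0.92) on the scale of log2(CPM + 1). The libraries share stage and tissue, so that this is a description. The gene models most like 624234 by Pearson's r were 508527 (r = 0.98), which carries a carbohydrate-binding WSC domain, 672076 (r = 0.97) and 163235 (r = 0.97), which carries an HPP domain. For LbH11 they were 637740 (r = 0.97), annotated with oxidoreductase activity, 312419 (r = 0.94) and 665201 (r = 0.92). A high r marks a like course and not a like size of change. Group means ranged only from 75.5 to 113 CPM for 637740, 21.7 to 68.8 CPM for 312419 and 21.7 to 50.7 CPM for 665201. Of those like 624234, the range was 13.5 to 49.7 CPM for 672076, 2.48 to 166 CPM for 508527 and 1.41 to 70.5 CPM for 163235. Those most like 389286 were 320763 (r = 0.95), 481222 (r = 0.93) and 578569 (r = 0.93). These neighbours depend on the measure: by Spearman's rho 0, 1 and 0 of the 3 were kept for 624234, LbH11 and 389286, and with a pseudocount of 0.1 in place of 1 those of 389286 were reduced to 2. Hydrophobin 389286 itself correlated with 624234 at r = -0.87 and with LbH11 at r = -0.58.

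Other surface and secreted proteins were taken from the paper's list of genes regulated in fruiting body development. They were thus chosen as regulated and are not an independent comparison. Among them, a gene model with a cerato-platanin domain (172945), a small secreted fungal protein fold, did not change past the test in caps, where 624234 and LbH11 fell. It had 1262 ± 265, 2024 ± 911 and 2107 ± 287 CPM in early, medium and late caps, and its difference between late and early caps was 0.74 (adjusted p = 0.217). In stipes it fell by 3.17 from early to late (adjusted p = 1.15e-04), so that late caps exceeded late stipes by 5.27 (adjusted p = 2.21e-06). The cupredoxin gene models of the same list, 394024 and 670046, of a copper-binding fold, also fell from early to late stipes. There 394024 fell by 2.58 (adjusted p = 1.48e-05) and 670046 fell by 3.89 (adjusted p = 4.21e-06). In late against early caps 670046 fell by 1.39 (adjusted p = 0.00909, and -1.07 and not called without early cap 2), whereas 394024 differed by 0.08 (adjusted p = 0.855). Like 624234, all 3 had a positive interaction from early to late, of 3.91, 2.66 and 2.51 (adjusted p = 8.98e-04, 6.34e-04 and 0.0037). Of all gene models, 9.84% were called positive and 4.62% negative in this interaction.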

How the data were processed

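Paired-end reads of stranded mRNA libraries were trimmed by the authors, mapped with CLC Genomics Workbench to transcripts of genome version v2, and deposited as counts per gene model, without normalization, beside RPKM values that the authors computed from them. Whether unique or total reads were counted, and whether strand was used, is not given in the sources used here. Counts were analysed in R 4.3.3 with edgeR 4.0.16. The 16485 gene models kept by filterByExpr were scaled by TMM (factors 0.893 to 1.12), and a quasi-likelihood model with a mean for each of the 6 groups was fitted to all 18 libraries. Depth lay between 38976106 and 90888294 reads, and counting intervals are exact Poisson. The fit was tested on simulated data.

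DESeq2 1.42.0, other scalings and filters, other thresholds, a replicate block, summed near-alike replicates and leaving out each library were the alternatives. Named were the 3 hydrophobins, their family, the cerato-platanin and cupredoxin models, and for each hydrophobin the 3 models with the highest Pearson's r over 18 libraries. Members and lists were chosen with earlier results of these data known. RefSeq hydrophobin symbols (12, of which 8 matched a gene model by number) were added after the files were seen. The other 4 matched none by number, and whether they belong to gene models analysed here without a symbol is not known. Lists came from the part of the supplementary tables at hand. Protein and promoter sequences were not used here.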

Additional observations from a re-analysis of the deposited data

Results flagged for a closer look

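Among the 11 tested members of the hydrophobin family, the change with age differed between caps and stipes in 4 cases. The test was that of the interaction (the change in caps minus that in stipes, edgeR's quasi-likelihood test, Benjamini-Hochberg adjustment). From early to late 2 of 11 were called, both positive, where 9.84% of all gene models were called positive and 4.62% negative. From medium to late 2 of 11 were called, both positive, where 5.5% and 1.79% were. For 624234 the difference was 3.46 ± 0.51 on the log2 scale from early to late (adjusted p = 3.47e-04) and 3.10 ± 0.50 from medium to late (adjusted p = 0.00215), since late stipes held 9.18 CPM and late caps 75.5 CPM. For LbH14 it was 2.60 ± 0.82 from early to late (adjusted p = 0.0328), with a rise of 4.31 in caps and of 1.71 in stipes, and this call was lost without any of the early or late caps, early stipe 2, late stipe 2 or late stipe 3 (1.70 to 2.71). For LbH1 it was 1.03 ± 0.29 from medium to late (adjusted p = 0.0331), and this call was lost without any of the late caps or late stipes, medium cap 2 or medium stipe 3 (0.86 to 1.09). Groups of 3 libraries are too small for a test for single outlying libraries.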

How the results depend on the processing

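For the 3 hydrophobins, 36 values (9 comparisons and 3 interactions each) were recomputed under 30 alternatives. Of 1080 values, 1050 kept their direction and their side of the threshold, 10 lost a call, 6 gained one and 14 uncalled values had another sign. Every fall of 624234 and LbH11 to the late stage, and both late interactions of 624234, were called under each alternative. DESeq2 called 624234 in medium against early stipes (-1.07). Without a minimum fold change, 389286 was called in late against early caps (0.86) and in late caps against late stipes (-0.91). LbH11 in medium caps against medium stipes was not called with the libraries of these groups alone (-1.25), with medium stipes 1 and 2 summed (-1.15), with both near-alike pairs summed (-1.13) or at an adjusted p under 0.01 (-1.22). There 624234 turned to 0.14 with medium stipes 1 and 2 summed and to 0.15 with both pairs summed.

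With single libraries left out, 389286 ranged from 0.66 to 1.09 in late against early caps, from -0.023 to 0.28 in medium against early caps, from 0.94 to 1.34 in late against medium stipes and from -1.06 to -0.71 in late caps against late stipes. LbH11 ranged from -2.01 to -1.58 in early caps against early stipes and from -1.57 to -0.92 in medium caps against medium stipes, where 624234 ranged from -0.45 to 0.25. The interaction from early to medium ranged from -0.027 to 0.68 for 624234 and from -0.25 to 0.15 for 389286, and that from medium to late from -0.45 to 0.21 for LbH11. With 1 library left out, its group was assumed to vary like the others. The cause of these shifts was not tested.

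The deviations of same-numbered caps and stipes of a stage had correlations from -0.61 to 0.24. Those with different numbers ranged from -0.61 to 0.63, and whether such libraries shared a basidiocarp was not tested. The replicate block kept all 36 calls of the 3 hydrophobins and moved none of these values by more than 0.07. It gives a replicate number the same effect in all groups, so it cannot test pairing within a stage. Of the other named family members, LbH14 in medium against early caps was 2.44 and not called under the replicate block. Other scalings moved the median of all gene models by at most 0.04. Depth limits 389286, with 16 to 65 reads per library.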
